A study of Mus musculus with 8 samples.

Results

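The 10 genes described here encode transcription factors of the hair germ, the hair matrix and the differentiating hair lineages: Msx1, Msx2, Dlx2, Dlx3, Trps1, Ascl2, Foxn1, Ovol1, Gata3 and Cux1. They were taken by name, with every probe set that the platform annotation gives to that gene alone. That gave 28 of the 45037 probe sets tested: 9 for Cux1, 4 for Trps1, 3 for Ascl2, 2 each for Msx1, Msx2, Dlx3, Foxn1 and Ovol1, and 1 each for Dlx2 and Gata3. No member was filtered out for low signal. Of the 28, 18 lay above the background limit on all 8 arrays and 10 on only some of them. That limit was a scaled signal of 31.1, the 95th percentile of the bacterial control probe sets.

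The series asked what high levels of the transcription factor Runx1 do to hair follicle stem cells at rest. Cells positive for keratin 15-GFP and α6-integrin were sorted from skin of mice whose follicles were resting (telogen): those without surface CD34 were labelled hair germ and those with it bulge. There were 4 groups of 2 arrays: Runx1 iTG hair germ, WT hair germ, Runx1 iTG bulge and WT bulge. Runx1 iTG mice carried a Tet-on Runx1 transgene and WT mice were the controls. All mice received doxycycline for 1 day, at 1 g per kg of food, which the labels describe as a chase that represses H2BGFP. All samples were taken at postnatal day 20, except replicate 2 of both Runx1 iTG groups, labelled day 21. The promoter that drives the transgene, the genetic background and any pooling of animals are not stated in the sources used here.

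The hair germ is a small cluster of cells beneath the bulge that is the first to divide when a new hair cycle begins. Its progeny form the matrix, the dividing tissue at the base of the growing hair, and matrix cells leave it to become the hair shaft or the inner root sheath. Transcription factors direct these steps. Msx1, Msx2, Dlx2 and Dlx3 are homeodomain proteins, a class with many roles in skin appendages. Trps1 and Gata3 carry GATA-type zinc fingers, Foxn1 is a forkhead protein, Ascl2 a basic helix-loop-helix protein, Ovol1 a zinc finger repressor and Cux1 a protein with cut repeats and a homeodomain. Telogen follicles have no matrix.

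Runx1 itself followed the labels: its brightest probe set read 12100 and 12880 in Runx1 iTG hair germ cells against 495 and 489 in WT hair germ cells, and 19450 and 13690 in Runx1 iTG bulge cells against 658 and 903 in WT bulge cells. All values are scaled signals, that is, deposited intensities brought to a common 75th percentile. Replicate number went with sex in every group: Xist, which marks female cells, lay between 30.2 and 72.5 on the replicate 1 arrays and between 9970 and 11100 on the replicate 2 arrays, and the Y-linked Eif2s3y ran the other way. The labels call the replicates biological. Each p-value therefore rests on the spread between 2 such samples per group, shared over the 4 groups, sex included. In the fit that spread was also moderated towards its trend with intensity over all probe sets. In the Runx1 iTG groups replicate 2 was also the day 21 sample, so sex and age cannot be told apart there. A fit of the day 20 arrays alone keeps only replicate 1 of those groups. Whether hair germ and bulge samples came from the same animals the sources used here do not say.

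The sort gene Cd34 separated the populations (1.52 and 5.24 in Runx1 iTG hair germ cells, 3.77 and 53.1 in WT hair germ cells, 4901 and 8593 in Runx1 iTG bulge cells and 7077 and 11200 in WT bulge cells), but the cells labelled hair germ went against most of the hair germ marker list. Of its 10 genes 1 was higher in hair germ than in bulge cells and 6 were lower, with a median log2 difference of −1.32 against −0.14 over all probe sets. Averaged over both genotypes, limma called 7.39% of all probe sets lower and 6.63% higher. Each list gene was read by its brightest probe set, whereas that share also covers dim probe sets and several per gene. Edar, the ectodysplasin receptor, was the gene that was higher (5.65, adjusted p = 0.000388). Its size rests in part on bulge values below background. Edar read 40.5 and 5.39 in Runx1 iTG bulge cells and 38.4 and 11.6 in WT bulge cells. Lgr5 (−4.68), Gli1 (−4.18) and Ptch1 (−1.66), markers of Wnt- and hedgehog-responsive cells, were among the lower ones. Lgr5 is also in the bulge marker list described below. The summed signal of the list was 3586 and 4774 in Runx1 iTG hair germ cells, 3164 and 3706 in WT hair germ cells, 15090 and 15610 in Runx1 iTG bulge cells and 15350 and 21400 in WT bulge cells. Lgr5 and Ptch1 made up most of the sum in bulge cells. Lgr5 read 7054 and 7453 in Runx1 iTG bulge cells and 9953 and 8471 in WT bulge cells. Ptch1 read 4708 and 3137 in Runx1 iTG bulge cells and 5094 and 3189 in WT bulge cells. Fgf20 lay below background in Runx1 iTG hair germ cells and Wnt10b in WT bulge cells.

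Markers of other compartments were compared between the sorts in the same way. The share to set beside each count is again 7.39% lower and 6.63% higher over all probe sets. It is not over a like set, because the lists hold only the brightest probe set of each gene. In the upper follicle and sebaceous gland list 10 of 14 genes were higher in hair germ cells and 2 lower, among them Far2 (4.37), Elovl3 (4.03), Krt79 (3.20) and Scd1 (2.24) on the higher side. Its summed signal was 77420 and 79180 in Runx1 iTG hair germ cells, 78550 and 81870 in WT hair germ cells, 24940 and 30960 in Runx1 iTG bulge cells and 21020 and 26740 in WT bulge cells. In the proliferation list 14 of 17 genes were higher in hair germ cells and none lower, and its sum was 34230 and 40210 in Runx1 iTG hair germ cells, 34010 and 47350 in WT hair germ cells, 9187 and 17740 in Runx1 iTG bulge cells and 7899 and 18000 in WT bulge cells. The suprabasal epidermis list had 11 of 14 genes lower in hair germ cells and none higher, with sums of 29230 and 40480 in Runx1 iTG hair germ cells, 50250 and 51030 in WT hair germ cells, 72540 and 100000 in Runx1 iTG bulge cells and 97240 and 104600 in WT bulge cells; Tgm1 lay below background in Runx1 iTG hair germ cells. In the bulge marker list 11 of 12 genes were lower in hair germ cells, with sums of 19770 and 26390 in Runx1 iTG hair germ cells, 31180 and 36180 in WT hair germ cells, 101700 and 102400 in Runx1 iTG bulge cells and 102300 and 118200 in WT bulge cells; Cd34 lay below background in Runx1 iTG hair germ cells. The fibroblast and dermal papilla list, with 5 of 10 genes lower in hair germ cells, summed to 1360 and 2070 in Runx1 iTG hair germ cells, 1221 and 1612 in WT hair germ cells, 15950 and 17290 in Runx1 iTG bulge cells and 12420 and 13950 in WT bulge cells. Its collagen gene Col3a1 lay below background in both hair germ groups and Lum in all 4 groups. Of the melanocyte list 2 of 10 genes were lower in hair germ cells. Its sums were 503.1 and 1249 in Runx1 iTG hair germ cells and 1026 and 1132 in WT hair germ cells. They were 2220 and 4631 in Runx1 iTG bulge cells and 2337 and 3867 in WT bulge cells. Most of each sum was the signal of Mitf alone. Mitf read 374 and 868 in Runx1 iTG hair germ cells and 797 and 707 in WT hair germ cells. It read 1984 and 4178 in Runx1 iTG bulge cells and 1886 and 3163 in WT bulge cells. Tyrp1 and Mlana lay below background in both hair germ groups. Of the endothelial list 1 of 8 was lower, with sums of 109.3 and 201.3 in Runx1 iTG hair germ cells, 113.4 and 145.5 in WT hair germ cells, 246.2 and 412.7 in Runx1 iTG bulge cells and 281.6 and 389.5 in WT bulge cells, and Cldn5 lay below background in all 4 groups. Of 10 immune genes 0 passed in limma and 2 had an unadjusted p under 0.05 (27.1% of all probe sets did), and Ptprc lay below background in all 4 groups. The part of these markers in the differences of the 10 factors was not tested. In sorted bulk samples, fewer cells of a type and less RNA per cell cannot be told apart.

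Between the sorted populations, 6 of the 10 factors were lower in hair germ than in bulge cells (Msx1, Msx2, Dlx2, Dlx3, Trps1 and Ascl2), 1 was higher (Cux1), and Foxn1, Ovol1 and Gata3 did not pass the test. Averaged over both genotypes, 12 of the 28 probe sets were lower and 5 higher, at a Benjamini-Hochberg adjusted p under 0.05 over all 45037 probe sets (limma). Over all probe sets the same test called 14% (7.39% lower and 6.63% higher). The median of the 28 differences was −0.71 on the log2 scale, beside −0.14 for all probe sets; quantile normalization moves that median of all probe sets to 0.02. Within WT mice 9 member probe sets were lower and 2 higher, where 4.61% of all probe sets were called (2.59% lower, 2.02% higher). Within Runx1 iTG mice 11 were lower and 1 higher, where 6.98% of all were called (3.9% lower, 3.08% higher). In 12 probe sets every hair germ array lay below every bulge array, and in 2 above, against 10.7% and 8.71% of all probe sets.

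The counts within a genotype rested on few arrays. The 11 calls in WT became 4 without WT bulge replicate 2 and 6 without WT bulge replicate 1 or either WT hair germ array. The 12 calls in Runx1 iTG mice became 7 without Runx1 iTG hair germ replicate 1. In a fit of the day 20 arrays alone 1 was left, that of Trps1 (1449530_at). The 7 genes called in Runx1 iTG mice became 4 without Runx1 iTG hair germ replicate 1 or Runx1 iTG bulge replicate 1. For this reason the differences below are those averaged over both genotypes, unless a genotype is named.

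**Figure D1:**
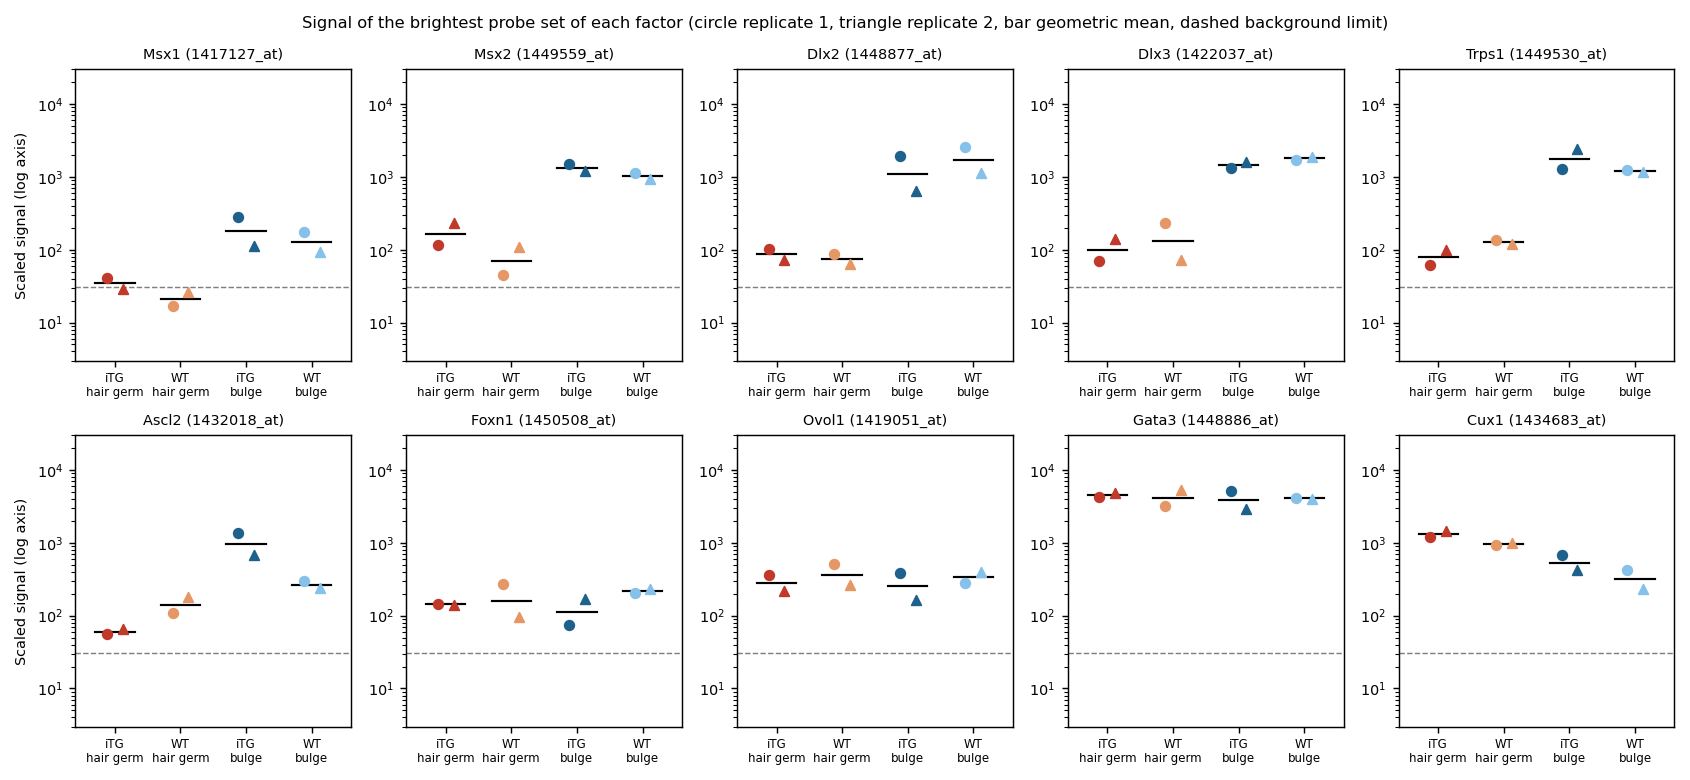
Scaled signal (log axis) of the brightest probe set of each of the 10 factors in every sample, with Runx1 iTG hair germ, WT hair germ, Runx1 iTG bulge and WT bulge from left to right; circles are replicate 1, triangles replicate 2, bars geometric means and the dashed line the background limit of 31.1. In the top row (Msx1, Msx2, Dlx2, Dlx3, Trps1) the 4 hair germ samples sit below the 4 bulge samples, while Gata3 lies between 2925 and 5307 in all 8 samples.

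The Msx and Dlx homeobox genes were each lower in hair germ cells by at least 1 probe set. Msx2 acts in the matrix and in hair shaft differentiation, and mice without it lose hair in cycles. Its probe set 1449559_at read 118 and 235 in Runx1 iTG hair germ cells, 45.4 and 109 in WT hair germ cells, 1482 and 1187 in Runx1 iTG bulge cells and 1128 and 949.9 in WT bulge cells. Every hair germ sample lay well below every bulge sample. Within each population both Runx1 iTG samples lay above both WT samples, but neither genotype difference passed the test. Pairs that do not overlap were common, at 34.7% of all probe sets in hair germ cells and 33.3% in bulge cells. Msx2 was 10.8-fold lower in hair germ cells (log2 difference −3.44, SE 0.34, adjusted p = 0.000184). The other probe set, 1438351_at, lay between 19.6 and 57.4 on all arrays, and did not pass (−0.43, 95% interval −1.67 to 0.81, adjusted p = 0.682). With the mean of both probe sets the Msx2 difference was −1.93.

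Msx1, the close relative that shares much of Msx2's function in tooth and skin appendages, lay below background in most hair germ samples. Probe set 1417127_at read 41.4 and 28.9 in Runx1 iTG hair germ cells, 16.7 and 26.0 in WT hair germ cells, 281 and 114 in Runx1 iTG bulge cells and 176 and 94.1 in WT bulge cells. Only 1 of the 4 hair germ samples lay above background, and all 4 bulge samples did. Msx1 passed as lower in hair germ cells by this probe set (log2 difference −2.50, SE 0.51, adjusted p = 0.00998), with a size that rests in part on values below background: in WT mice, where both hair germ samples lay there, the signal was at least 4.14-fold lower (adjusted p = 0.0767). For the averaged difference, without WT bulge replicate 1 the adjusted p was 0.0522, and with the day 20 arrays alone it was 0.0654. For 1448601_s_at the values were 12.2 and 24.3 in Runx1 iTG hair germ cells, 9.03 and 9.20 in WT hair germ cells, 204 and 192 in Runx1 iTG bulge cells and 501 and 206 in WT bulge cells. All hair germ samples were below background there, so the signal in hair germ cells was at least 8.10-fold lower (log2 difference −4.33, SE 0.51, adjusted p = 0.000528). The suffix of 1448601_s_at means that its probes can match more than 1 transcript; over the 8 arrays both Msx1 probe sets correlated at r = 0.916, a description over samples that share the population split.

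Dlx2 and Dlx3, distal-less homeobox genes, showed the same order of populations. Dlx3 is required in the mouse for hair shaft and inner root sheath formation, and Dlx2 is known mainly from jaw and forebrain development. Dlx2 (1448877_at) read 104 and 71.6 in Runx1 iTG hair germ cells, 86.4 and 63.9 in WT hair germ cells, 1906 and 647 in Runx1 iTG bulge cells and 2568 and 1122 in WT bulge cells. All 4 hair germ samples were between 63.9 and 104 and all 4 bulge samples between 647 and 2568, and the genotypes overlapped in both populations. Dlx2 was 17.2-fold lower in hair germ cells (log2 difference −4.10, SE 0.40, adjusted p = 0.000167). Dlx3 (1422037_at) read 69.3 and 140.3 in Runx1 iTG hair germ cells, 233 and 72.3 in WT hair germ cells, 1338 and 1603 in Runx1 iTG bulge cells and 1698 and 1900.3 in WT bulge cells. Hair germ and bulge samples did not overlap, and replicates differed most within hair germ cells, where the genotypes overlapped. Dlx3 was 14.3-fold lower in hair germ cells by this probe set (log2 difference −3.84, SE 0.37, adjusted p = 0.000174) and 7.57-fold lower by 1450475_at (log2 difference −2.92, SE 0.35, adjusted p = 0.000562).

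The stretches just upstream of Msx1, Msx2 and Dlx2 are shown because these homeobox genes moved together between the populations, and that of Ascl2 because its values ran in opposite directions with genotype (below). Each is the 250 bases before the annotated start, from RefSeq on build GRCm38.p6, 5′ to 3′ on the gene's strand, which is the minus strand for all of them: Msx1 chr5:37824586-37824835, Msx2 chr13:53472781-53473030, Dlx2 chr2:71546755-71547004 and Ascl2 chr7:142969265-142969514. Capitals mark a motif that was searched for.
Msx1: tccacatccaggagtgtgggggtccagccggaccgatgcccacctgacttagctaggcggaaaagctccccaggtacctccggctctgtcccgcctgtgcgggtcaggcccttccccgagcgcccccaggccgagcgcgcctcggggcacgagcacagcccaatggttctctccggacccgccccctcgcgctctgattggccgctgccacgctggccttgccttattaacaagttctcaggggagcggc
Msx2: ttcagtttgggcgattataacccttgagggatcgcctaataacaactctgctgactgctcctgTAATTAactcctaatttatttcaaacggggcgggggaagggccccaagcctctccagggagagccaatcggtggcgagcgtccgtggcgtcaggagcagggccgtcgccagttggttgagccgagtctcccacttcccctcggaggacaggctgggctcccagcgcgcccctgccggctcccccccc
Dlx2: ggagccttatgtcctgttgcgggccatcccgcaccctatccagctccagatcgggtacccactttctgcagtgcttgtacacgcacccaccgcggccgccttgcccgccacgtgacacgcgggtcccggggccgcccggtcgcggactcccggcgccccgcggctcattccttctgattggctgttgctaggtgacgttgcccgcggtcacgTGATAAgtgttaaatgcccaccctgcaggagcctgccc
Ascl2: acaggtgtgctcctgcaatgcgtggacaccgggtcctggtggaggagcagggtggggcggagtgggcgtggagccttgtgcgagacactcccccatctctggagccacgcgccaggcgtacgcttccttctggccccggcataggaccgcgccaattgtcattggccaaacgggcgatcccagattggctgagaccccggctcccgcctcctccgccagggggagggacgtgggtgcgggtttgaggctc

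The motifs searched on both strands were the RUNX cores TGTGGT and TGCGGT, the homeodomain cores TAATTA and TAATTG, the GATA motifs TGATAA and AGATAA and the E-box CAGCTG. Only the RUNX cores were chosen with the members; the others were added later. Of the 10 genes, 7 had an entry (Dlx3, Trps1 and Ovol1 had none). The capitals in Msx2 are a TAATTA that begins at position −187 from the start, and those in Dlx2 a TGATAA at −38. Foxn1 held TAATTA at −29 and CAGCTG at −10, and the windows of Msx1, Ascl2, Gata3 and Cux1 held none of the 7 motifs. Of all 32851 promoters of this length, 14.05% held TGTGGT, 5.1% TGCGGT, 4.84% TAATTA, 7.17% TAATTG, 7.94% TGATAA, 9.99% AGATAA and 13% CAGCTG. Neither RUNX core was in any of the 7 windows; a match, or its absence, describes these letters only. GC content was 68% for Msx1, 61.6% for Msx2, 66.4% for Dlx2 and 67.6% for Ascl2, where the median of all promoters was 52.4%.

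Trps1, a GATA-type repressor whose loss in people causes tricho-rhino-phalangeal syndrome with sparse hair, was lower in hair germ cells by all 4 of its probe sets. The brightest, 1449530_at, read 62.5 and 98.2 in Runx1 iTG hair germ cells, 135 and 118 in WT hair germ cells, 1295 and 2381 in Runx1 iTG bulge cells and 1228 and 1172 in WT bulge cells. The highest hair germ sample was far under the lowest bulge sample, and genotypes ran in opposite directions in the populations without passing a test. By this probe set Trps1 was 14.6-fold lower in hair germ cells (log2 difference −3.87, SE 0.27, adjusted p = 3.01e-05), a call that held in both genotypes and in every alternative. Probe set 1438214_at read 32.4 and 65.2 in Runx1 iTG hair germ cells, 8.0 and 38.8 in WT hair germ cells, 626 and 1446 in Runx1 iTG bulge cells and 641 and 1019 in WT bulge cells. The hair germ values there lay around the background limit. Its difference was −4.94 (adjusted p = 0.000339), and those of 1434286_at and 1457445_at were −4.13 (adjusted p = 0.00233) and −3.67 (adjusted p = 0.000606). That of 1434286_at was −3.31 without Runx1 iTG hair germ replicate 1 and −4.95 without replicate 2. Between the 4 probe sets r over the 8 arrays lay between 0.829 and 0.958. The opposite genotype directions of 1449530_at were shared by 1457445_at only. Runx1 iTG minus WT was positive in both populations for 1438214_at (1.38 in hair germ and 0.23 in bulge cells). It was negative in both for 1434286_at (−0.21 and −0.06). None of these genotype differences passed the test.

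Ascl2, a target of Wnt signalling that maintains stem cells in the mouse intestine, had 3 probe sets, of which 2 passed. Probe set 1432018_at read 55.1 and 64.9 in Runx1 iTG hair germ cells, 110.0 and 182 in WT hair germ cells, 1367 and 689 in Runx1 iTG bulge cells and 299 and 237 in WT bulge cells. Runx1 iTG hair germ samples were lowest and Runx1 iTG bulge samples highest, with both WT groups between them. Averaged over genotypes it was 5.52-fold lower in hair germ cells (log2 difference −2.46, SE 0.33, adjusted p = 0.00101). Probe set 1460514_s_at read 25.6 and 21.9 in Runx1 iTG hair germ cells, 149 and 128 in WT hair germ cells, 1074 and 587 in Runx1 iTG bulge cells and 216 and 352 in WT bulge cells. The order of the 4 groups was the same, and both Runx1 iTG hair germ samples were below background. It passed as lower in hair germ cells (log2 difference −3.03, SE 0.34, adjusted p = 0.000404), with a size that rests in part on those values below background. The third, 1422396_s_at, read 17.8 and 19.4 in Runx1 iTG hair germ cells, 45.2 and 35 in WT hair germ cells, 149 and 86.7 in Runx1 iTG bulge cells and 76.5 and 39.8 in WT bulge cells and did not pass (log2 difference −1.54, SE 0.51, adjusted p = 0.0777).

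The Ascl2 difference between populations was called within Runx1 iTG mice and not within WT mice. In Runx1 iTG mice the 1432018_at signal was 16.2-fold lower in hair germ cells (log2 difference −4.02, SE 0.46, adjusted p = 0.00122), and that of 1460514_s_at was at least 25.5-fold lower (log2 difference −5.07, SE 0.48, adjusted p = 0.000462). With the day 20 arrays alone, 1 sample stood for each Runx1 iTG group, and the adjusted p was 0.067 and 0.0593 for these probe sets. In WT mice the differences were −0.91 (adjusted p = 0.346) and −1.0 (adjusted p = 0.316). The test of the difference between the genotypes is the interaction, which was −3.11 (SE 0.66, unadjusted p = 0.000841) and −4.07 (SE 0.68, unadjusted p = 0.000158), and −2.14 for 1422396_s_at (unadjusted p = 0.0639). The adjusted p was 1 for all 3, so the interaction did not pass. For 1460514_s_at and 1422396_s_at it includes Runx1 iTG hair germ samples below background, so its size is not settled there.

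**Figure D2:**
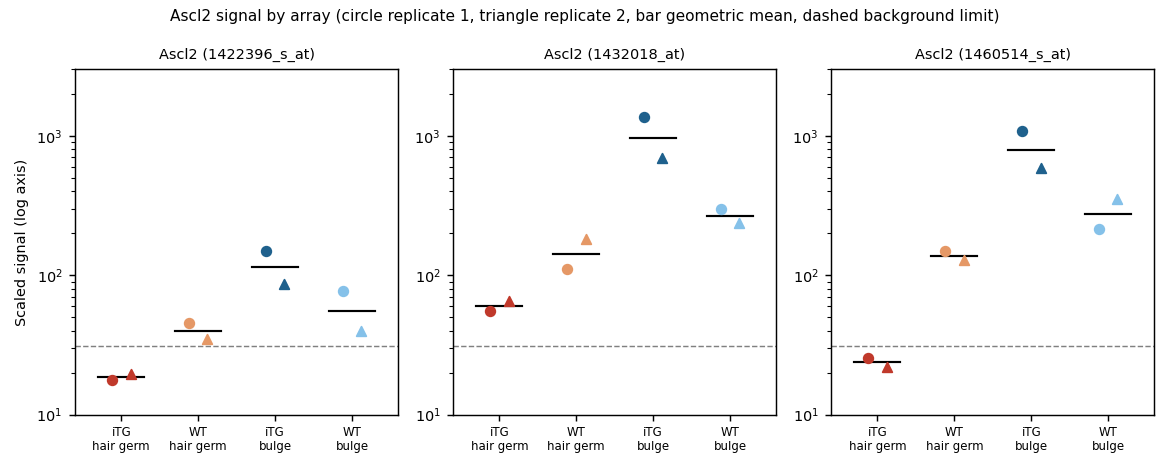
Scaled signal (log axis) of the 3 Ascl2 probe sets in every sample, with Runx1 iTG hair germ, WT hair germ, Runx1 iTG bulge and WT bulge from left to right; circles are replicate 1, triangles replicate 2, bars geometric means and the dashed line the background limit of 31.1. In each panel the Runx1 iTG pair lies below the WT pair in hair germ cells and above it in bulge cells.

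Cux1, a homeodomain protein needed in the mouse for normal inner root sheath and hair structure, was the member with higher signal in hair germ cells. All 9 probe sets had a positive difference averaged over both genotypes, and 5 passed. The brightest, 1434683_at, read 1205 and 1444 in Runx1 iTG hair germ cells, 924 and 1001 in WT hair germ cells, 673 and 425 in Runx1 iTG bulge cells and 419 and 235 in WT bulge cells. All hair germ samples lay above all bulge samples. It was 2.75-fold higher in hair germ cells (log2 difference 1.46, SE 0.25, adjusted p = 0.00377). Probe set 1425612_at read 827 and 612 in Runx1 iTG hair germ cells, 335 and 393 in WT hair germ cells, 321 and 331 in Runx1 iTG bulge cells and 150.5 and 133 in WT bulge cells, with every hair germ sample above every bulge sample. It was 2.37-fold higher in hair germ cells (log2 difference 1.24, SE 0.23, adjusted p = 0.00611). For 1451435_at the fold was 2.13 (log2 difference 1.09, SE 0.23, adjusted p = 0.0104). Probe sets 1424667_a_at (log2 difference 1.47, SE 0.41, adjusted p = 0.0422) and 1437431_at (log2 difference 2.36, SE 0.63, adjusted p = 0.0337) also passed, the second with WT bulge samples below background. The other 4 lay between 0.15 and 0.65 and did not pass: 1424668_a_at (0.64, adjusted p = 0.165), 1441956_s_at (0.65), 1425611_a_at (0.17) and 1437686_x_at (0.15).

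None of the 5 Cux1 calls held in every alternative, and 3 of them (1451435_at, 1424667_a_at and 1437431_at) also missed the threshold when the variance was fitted without an intensity trend. With the day 20 arrays alone the adjusted p was 0.0571 for 1425612_at, 0.0901 for 1434683_at and 0.0985 for 1451435_at. The call of 1451435_at also ended without WT hair germ replicate 2 (adjusted p = 0.0501). Leaving out any of 7 arrays, all but Runx1 iTG bulge replicate 1, ended the call of 1424667_a_at (adjusted p up to 0.165). The call of 1437431_at ended without any of 6 arrays, all but replicate 2 of the 2 Runx1 iTG groups (adjusted p up to 0.146). Cux1 has many isoforms, the 9 probe sets correlated with each other at r between 0.00565 and 0.932 over the 8 arrays, and those with the suffixes _s_at and _x_at can match other transcripts.

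Foxn1, Ovol1 and Gata3 did not pass the test, averaged or within a genotype. Foxn1 is the gene lost in nude mice and acts in keratinocytes that leave the cycle to form the hair shaft. Its probe set 1450508_at read 146 and 139 in Runx1 iTG hair germ cells, 269 and 96.8 in WT hair germ cells, 75 and 168 in Runx1 iTG bulge cells and 204 and 235 in WT bulge cells. Hair germ and bulge samples overlapped. Within bulge cells the WT pair lay above the Runx1 iTG pair without passing the test, and pairs did not overlap in 33.3% of all probe sets there. The difference was −0.05 with a 95% interval of −0.99 to 0.90 (adjusted p = 0.961). The other, 1456815_at, gave −0.98, with an interval of −2.92 to 0.95, and did not track the other (r = −0.0361). Ovol1, which represses cell cycle and progenitor genes in skin, read 359 and 216 in Runx1 iTG hair germ cells, 507 and 261 in WT hair germ cells, 387 and 166 in Runx1 iTG bulge cells and 285 and 393 in WT bulge cells by 1419051_at. The populations overlapped throughout. The difference was 0.13 (95% interval −0.68 to 0.94, adjusted p = 0.865), and −0.34 (−1.24 to 0.56) by 1419052_at. Gata3, which specifies the inner root sheath, was bright in every sample (4225 and 4878 in Runx1 iTG hair germ cells, 3219 and 5307 in WT hair germ cells, 5195 and 2925 in Runx1 iTG bulge cells and 4174 and 4030.0 in WT bulge cells). Its difference had the narrowest interval of the 28: 0.12, 95% interval −0.39 to 0.62 (adjusted p = 0.798).

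**Figure D3:**
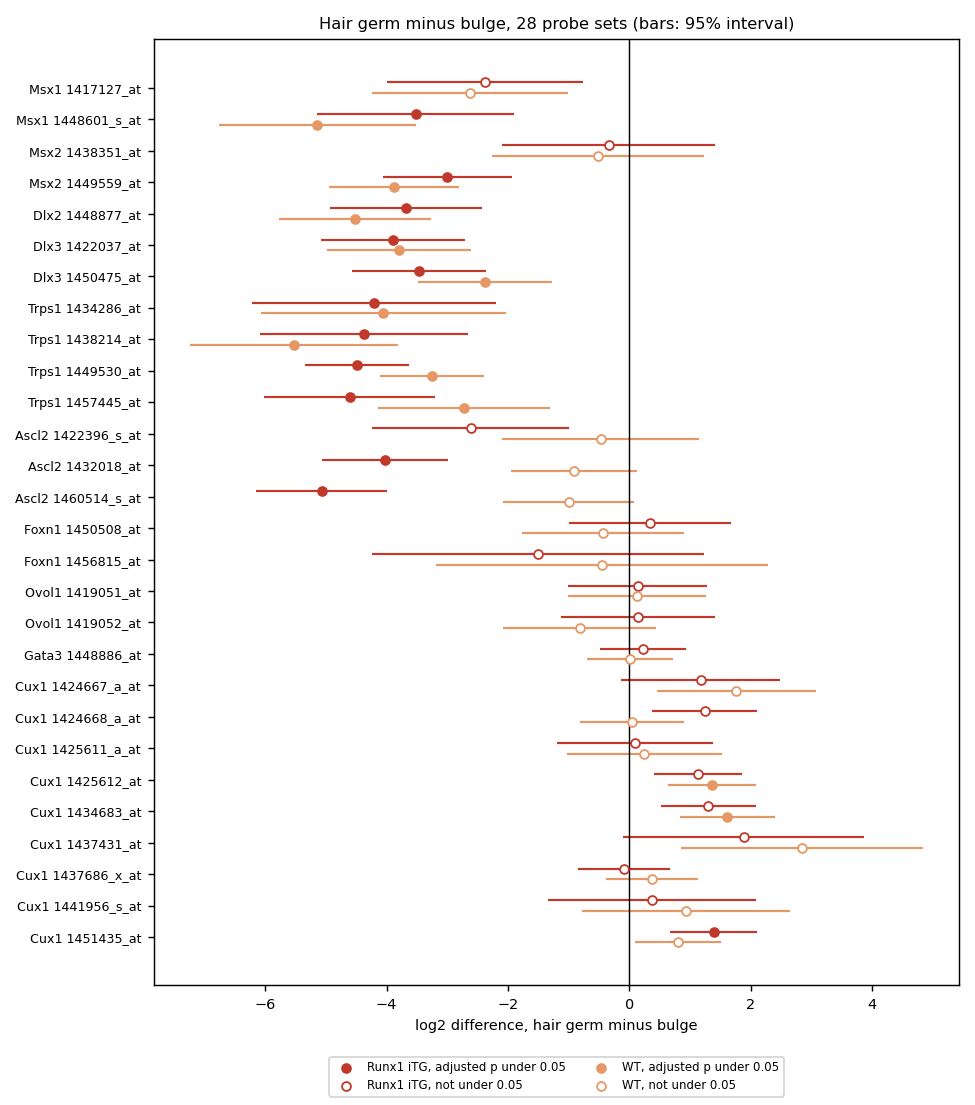
Hair germ minus bulge log2 difference of each of the 28 probe sets (horizontal axis) with its 95% interval, in Runx1 iTG mice (upper of each pair) and in WT mice (lower); filled points have an adjusted p under 0.05. Points left of 0 are lower in hair germ cells: 11 filled points in Runx1 iTG mice and 9 in WT mice lie there, and 1 and 2 to the right, all of them Cux1.

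The plot of differences by genotype shows the member probe sets one under another, with the Msx, Dlx and Trps1 points on the left in both genotypes, those of Ascl2 apart between genotypes, and those of Foxn1, Ovol1 and Gata3 around 0. Differences within Runx1 iTG and within WT mice use separate arrays. Their tests share an estimate of the spread from all arrays, so they are not independent. In Runx1 iTG mice Msx2 (1449559_at) had a difference of −3.00 and in WT mice of −3.88. For Dlx2 the values were −3.69 and −4.51, for Dlx3 (1422037_at) −3.89 and −3.79, and for Trps1 (1449530_at) −4.49 and −3.25, each in Runx1 iTG and then in WT mice. All 8 of these passed the test. The calls that held in every alternative were those of Msx2, Dlx2 and Trps1 (1449530_at) in WT mice and of Trps1 (1449530_at) in Runx1 iTG mice. With the day 20 arrays alone, Msx2, Dlx2 and Dlx3 (1422037_at) in Runx1 iTG mice had an adjusted p of 0.116, 0.0876 and 0.117. In WT mice the Dlx3 call also ended there (adjusted p = 0.0534). Without the intensity trend the adjusted p was 0.0577 for Msx2 and 0.0546 for Dlx2 in Runx1 iTG mice and 0.0583 for Dlx3 in WT mice, and in a fit of only the groups compared it was 0.0548 for Dlx2 in Runx1 iTG mice. The Msx2 call in Runx1 iTG mice also ended without Runx1 iTG hair germ replicate 1 (adjusted p = 0.0677), without Runx1 iTG bulge replicate 1 (0.0572) and with the mean of both Msx2 probe sets (log2 difference −1.67, adjusted p = 0.0798). The Dlx3 call in WT mice ended without WT bulge replicate 1 (0.0514) or WT bulge replicate 2 (0.0781). Single arrays moved some sizes by over 1.5 times: the log2 difference of Dlx2 in Runx1 iTG mice was −2.91 without Runx1 iTG bulge replicate 1 and −4.47 without replicate 2, and in WT mice −3.92 without WT bulge replicate 1 and −5.11 without replicate 2. Without WT hair germ replicate 1 or 2, in that order, it was −3.24 and −4.51 for Msx2 and −4.63 and −2.95 for Dlx3 in WT mice.

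Other genes of the same lineages were described from lists chosen with the members. Over all probe sets, not only the brightest of each gene as in the lists, 7.39% were called lower and 6.63% higher. Of 29 measured transcription factors of the follicle and epidermis, 12 were lower in hair germ cells and 3 higher (median −0.59). The 4 with the smallest p were Id3 (−3.36, adjusted p = 0.000248), a target of BMP signalling, Gli1 (−4.18, adjusted p = 0.000441) and Gli2 (−3.15, adjusted p = 0.000942), the hedgehog effectors, and Id2 (−2.31, adjusted p = 0.000491). Of 15 relatives of the members, 3 were lower and 1 higher (median −0.31). Those lower in hair germ cells were Dlx5 (−1.51, adjusted p = 0.0115), Dlx1 (−2.61, adjusted p = 0.0133) and Dlx4 (−2.37, adjusted p = 0.0496). All 3 are of the family of Dlx2 and Dlx3. Dlx1 lay below background in WT hair germ cells and Dlx4 in Runx1 iTG hair germ cells, so their sizes are not settled. Foxn3 (0.57, adjusted p = 0.0269), a relative of Foxn1, was higher. Of 23 structural genes of the hair shaft and inner root sheath, 1 was lower and none higher (median −0.51). That was Krt75 (−3.98, adjusted p = 0.000184), the keratin of the companion layer. It lay below background in WT hair germ cells, so the size of its difference is not settled. In each group between 4 and 8 of the 23 lay below background on both arrays, Krt33a, Krt35, Krt73 and Krt82 in all 4 groups.

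**Figure D4:**
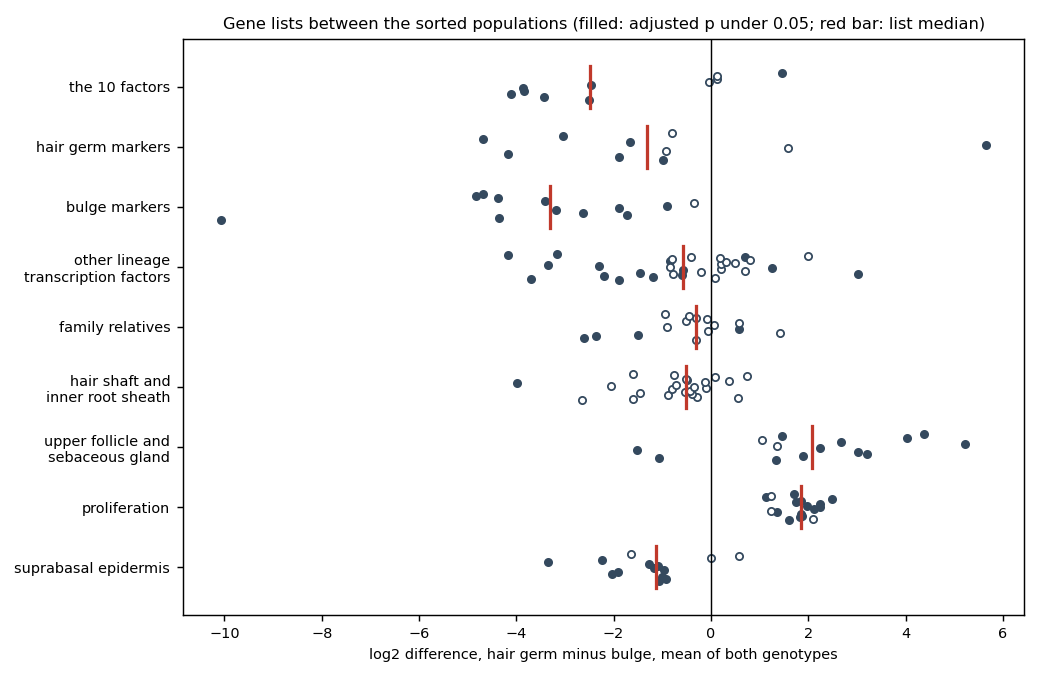
Hair germ minus bulge log2 difference, averaged over both genotypes (horizontal axis), for the 10 factors and 8 gene lists, 1 point per gene from its brightest probe set; filled points have an adjusted p under 0.05 and red bars are list medians. The medians of the hair germ markers (−1.32) and bulge markers (−3.30) lie left of 0, and those of the upper follicle and sebaceous gland (2.07) and proliferation (1.85) lists right of it.

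The plot of gene lists sets the 10 factors beside these groups. Of the factors, 7 points are filled, 6 on the left and Cux1 on the right. The hair germ markers are spread from Lgr5 on the left to Edar on the right.

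Between genotypes none of the 28 probe sets passed, in either population, averaged over both, or in the interaction, by limma. In all, 2 of 45037 probe sets (0.00444%) passed in bulge cells, 4 (0.00888%) in hair germ cells, 17 (0.0377%) averaged over populations and 0 (0%) in the interaction. Of the 28, 7 had an unadjusted p under 0.05 in hair germ cells (6.29% of all probe sets did), 6 in bulge cells (5.67%), 9 averaged (7.46%) and 3 in the interaction (4.2%). The median difference of the 28 was 0.26 in hair germ cells, and 0.41 in bulge cells, where that of all probe sets was −0.02. Cux1 holds 9 of the 28, and probe sets of 1 gene are not replicates.

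Ascl2 and Cux1 had the smallest p-values of the members. In hair germ cells the Ascl2 differences of Runx1 iTG minus WT were −2.54 by 1460514_s_at (unadjusted p = 0.000404, adjusted p = 0.298), −1.24 by 1432018_at (adjusted p = 0.712) and −1.10 by 1422396_s_at (adjusted p = 0.906). Both Runx1 iTG samples lay below background for 1460514_s_at and 1422396_s_at, so the signal there was at least 4.43-fold and at least 1.28-fold lower than in WT, without passing the test. In bulge cells the Ascl2 differences were, in the same order of probe sets, 1.52 (adjusted p = 0.78), 1.87 (95% interval 0.83 to 2.91, unadjusted p = 0.00253, adjusted p = 0.682) and 1.04 (adjusted p = 0.936). The plot of Ascl2 by sample shows the pairs apart in all 3 probe sets and both populations; groups of 2 that do not overlap were common, at 34.7% of all probe sets in hair germ cells and 33.3% in bulge cells. For Cux1, 8 of 9 probe sets had both Runx1 iTG samples above both WT samples in hair germ cells, and 8 of 9 in bulge cells. Averaged over populations the 9 differences lay between 0.38 and 1.96, the highest by 1437431_at, with WT bulge samples below background. Among the smallest p-values were those of 1437686_x_at (log2 difference 1.19, SE 0.24, adjusted p = 0.252), 1425612_at (log2 difference 1.09, SE 0.23, adjusted p = 0.273) and 1451435_at (log2 difference 0.80, SE 0.23, adjusted p = 0.422). By 1437686_x_at the samples read 375 and 481 in Runx1 iTG hair germ cells, 212 and 227 in WT hair germ cells, 401 and 504 in Runx1 iTG bulge cells and 168 and 169 in WT bulge cells; it was the only member probe set in which every Runx1 iTG sample lay above every WT sample, as in 1.26% of all probe sets.

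The plot of genotype differences shows the members' intervals crossing 0 in most cases. Msx2 (1449559_at) was at 1.24 in hair germ cells (95% interval 0.17 to 2.31, adjusted p = 0.731) and 0.36 in bulge cells (−0.71 to 1.43). Dlx2 gave 0.21 (−1.04 to 1.47) in hair germ cells and −0.61 (−1.86 to 0.64) in bulge cells. Dlx3 (1422037_at) gave −0.40 (−1.58 to 0.79) and −0.29 (−1.48 to 0.89) in the same order of populations. Each of these Dlx intervals holds 0, so neither gene's difference had a settled direction. Ovol1 (1419052_at) was at −1.45 in bulge cells (adjusted p = 0.826), where its other probe set gave −0.40. Gata3 was at 0.14 (−0.57 to 0.84) in hair germ cells and −0.07 (−0.78 to 0.64) in bulge cells, the narrowest intervals among the members.

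**Figure D5:**
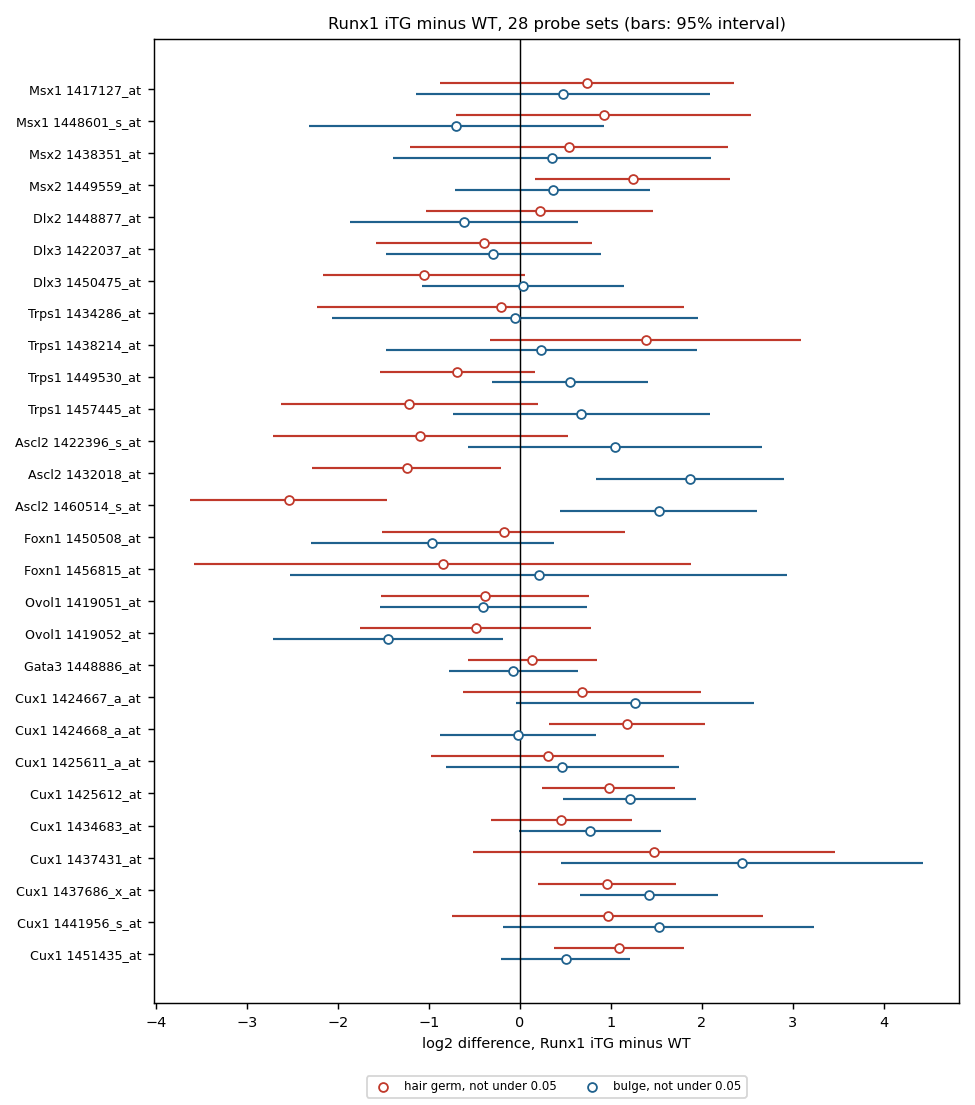
Runx1 iTG minus WT log2 difference of each of the 28 probe sets (horizontal axis) with its 95% interval, in hair germ cells (upper of each pair) and in bulge cells (lower). All points are open because none had an adjusted p under 0.05; the 3 Ascl2 pairs lie on opposite sides of 0, and the hair germ points of all 9 Cux1 probe sets lie right of 0.

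The genes whose pattern was most like that of a called member were taken as the 3 with the highest Pearson correlation of log2 signal over the 8 arrays, among genes brighter than the median probe set. All arrays share the split between populations, so these values describe the samples. Each member was taken by its brightest probe set, and that of Msx1 lay below background in most hair germ samples. For Msx1 the genes were Cenpb (r = 0.980), Ggps1 (0.979) and Clasrp (0.975), and for Msx2 Sorbs3 (r = 0.992), Spink2 (0.991) and Renbp (0.989). For Dlx2 they were Tnc (r = 0.985), Ntf5 (0.981) and Sec24d (0.980). Tnc, the matrix protein tenascin C, read 159.5 and 129 in Runx1 iTG hair germ cells, 111 and 111 in WT hair germ cells, 4902 and 2723 in Runx1 iTG bulge cells and 6946 and 5978 in WT bulge cells, low in all hair germ and high in all bulge samples, as Dlx2 was. The nearest genes were Cadm1 (r = 0.996), Creb5 (0.996) and Flrt2 (0.994) for Dlx3 and Timp2 (r = 0.995), Baz2b (0.995) and Duoxa1 (0.993) for Trps1. Those of Ascl2 were Rph3al (r = 0.988), Rarg (0.978) and Pigc (0.976). Rph3al read 435 and 524 in Runx1 iTG hair germ cells, 509 and 679.8 in WT hair germ cells, 1571 and 1151 in Runx1 iTG bulge cells and 893 and 795 in WT bulge cells, with its highest values, as for Ascl2, in Runx1 iTG bulge cells. Rarg encodes a retinoic acid receptor. Those of Cux1 were Fmc1 (r = 0.998), Rmdn3 (0.996) and Fabp5 (0.992), and Fmc1 read 1556 and 1861 in Runx1 iTG hair germ cells, 1213 and 1324 in WT hair germ cells, 982 and 554 in Runx1 iTG bulge cells and 607 and 354 in WT bulge cells, highest in Runx1 iTG hair germ cells.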

How the data were processed

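Sorted cells were measured on 8 Affymetrix Mouse Genome 430 2.0 arrays; per the labels' protocols, nanogram amounts of RNA went through NuGEN Ovation Pico WTA amplification before biotin labelling. The authors deposited a linear intensity for each of 45101 probe sets. The program that summarised and scaled the probes is not named by the labels; the values themselves show a common mean of 500 once the highest and lowest 2% of an array are dropped. Deposited array medians lay between 101.7 and 162, and 69% to 77% of probe sets were above background. The 64 control probe sets were removed, arrays were scaled to a common 75th percentile, and values under 2.41 (3.48% of them) were set to that floor, where they have no order, and then log2-transformed. Genes were named from the platform annotation, in which 34945 probe sets had 1 gene symbol and 932 had several and stayed unnamed. With limma 3.58.1 in R 4.3.3, a model with a mean for each group was fitted to the 8 arrays together (lmFit, eBayes with an intensity trend, residual degrees of freedom 4). There were 7 contrasts, with Benjamini-Hochberg adjustment over 45037 probe sets and a threshold of 0.05. The p-values in the text are from this fit, unless a sentence names an alternative. An alternative (an array left out, the day 20 arrays alone or another setting) gave its own p-value. The main fit was tested on simulated data with large changes planted in probe sets brighter than the median. That test therefore does not cover dim probe sets or small differences. A fold against a group wholly below background was taken against the lowest level measurable there and is written "at least". The number of arrays limits the precision: a log2 difference between 2 groups had a median standard error of 0.60. The genes named are all members, Runx1 and the sort genes. Up to 4 genes of each list by p and the 3 genes most like each called member were also named. Dlx6 and genes named only as below background fall outside this rule. Members, lists and tests were chosen with earlier results of these data known. The alternatives were other scalings, another floor, a filter on dim probe sets, no intensity trend, only the groups compared, 1 value per gene, the day 20 arrays alone, a replicate block and leaving out each array.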

Additional observations from a re-analysis of the deposited data

How the results depend on the processing

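None of the 49 member differences recomputed under the alternatives (those called, and the genotype and interaction differences of Ascl2) changed direction, and no genotype or interaction contrast called a member in any of them. Averaged over genotypes, 11 of the 17 calls held in every alternative; Msx1 (1417127_at) and the 5 Cux1 probe sets did not. The count in WT mice (11 probe sets) was 5 without the intensity trend, 7 in a fit of only the groups compared and 5 with the day 20 arrays alone, and 4 to 8 when 1 array was left out. In Runx1 iTG mice (12 probe sets of 7 genes) these settings gave 7 (4 genes), 7 (4 genes) and 1 (1 gene), and 7 to 12 probe sets (4 to 7 genes) when 1 array was left out. Averaged over genotypes (17) the range without 1 array was 14 to 16, and the day 20 arrays alone gave 12. Calls over all probe sets moved too: over all alternatives they lay between 452 and 2691 in WT mice, 87 and 3823 in Runx1 iTG mice and 2125 and 6980 averaged, and between genotypes between 0 and 20 in hair germ cells, 0 and 12 in bulge cells and 0 and 55 averaged. The day 20 fit and the fits without 1 array have fewer samples, and a lone array was taken to vary like the other groups; for the other settings the cause was not tested. With replicate number as a replicate block, which is also a block for sex, 10 probe sets passed in WT mice, 12 in Runx1 iTG mice and 17 averaged, and none between genotypes. The numbers were not taken to pair the samples, because no label says that a number marks an animal. The deviations of same-numbered samples correlated at −0.04 to 0.14 over 32276 probe sets. The value was 0.13 between the Runx1 iTG populations and 0.033 between the WT populations. Such a correlation cannot tell whether the populations came from the same animals. The dimmest members limit what can be read: 10 of the 28 probe sets lay below background on some arrays, Msx1 and the second Msx2 and Foxn1 probe sets among them.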
